A study of Mus musculus with 27 samples.

Results

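Control CT26 tumors taken during antibody treatment were described by the RNA of 5 tumor samples, out of 27 samples in the series. They were chosen by their titles, which name a control guide RNA, RNA sequencing and a replicate number from 1 to 5, and are numbered as tumors 1 to 5. CT26 is a mouse colon carcinoma line that arose in the BALB/c strain. Per the labels' protocols, CT26 cells were transduced with a retrovirus, given a control guide RNA that leaves the m6A writers Mettl3 and Mettl14 in place, mixed with Matrigel and grown under the skin of the flank of BALB/c mice. The mice received 200 µg (10 mg/kg) of antibody from day 11 to day 23. The protocols list antibodies to PD-1 and CTLA-4 and a control IgG, while anti-PD-1 is given for these tumors by the series design alone. All 5 tumors share the guide, the virus and the treatment, so that nothing here can be assigned to any of them. The labels name CT26 cells as the source although RNA came from whole tumors, and they do not tie a sample to an animal, so that the spread between samples may be partly technical. Neither the age nor the sex of the mice is given.

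CT26 cells are poorly differentiated and grow as tumors that host macrophages, fibroblasts and vessels enter. PD-1 is a receptor on activated T cells whose ligand PD-L1 restrains them, and antibodies to PD-1 lift that restraint. Whole-tumor RNA sums the cancer cells and every host cell, and in such bulk samples fewer cells of a type and less RNA per cell cannot be told apart.

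Gene counts deposited by the authors summed to 5.52, 12.5, 13.7, 18.1 and 21.0 mega-reads (M) in tumors 1 to 5. Levels are given as RPKM, which is reads per kilobase of exon per M gene reads after trimmed-mean (TMM) scaling over the 5 tumors, so that both genes and tumors can be set side by side. Errors are SD with n = 5 unless another n is given. Tumor 1 stood apart from the other 4. Its reads outside genes made up 78.6% of uniquely aligned reads, against 44.3% to 53.8% in tumors 2 to 5. The satellite-like gene models Gm10800 and Gm21738 held 14.8% and 4.98% of its gene counts, and at most 0.774% and 0.379% in the other tumors. Olfactory and vomeronasal receptor genes, which serve smell in the nose and give the background of a library, had a median of 0.910, 0.0887, 0.0184, 0.0911 and 0.0257 RPKM in tumors 1 to 5, with tumor 1 far above the rest. A gene is said to stand above background in a tumor where its RPKM exceeds the 95th percentile of these 1457 receptor genes there, which was 1.89, 0.285, 0.109, 0.233 and 0.100 RPKM. By that measure 11339 of 20464 other protein-coding genes stood above background in all 5 tumors, and 13306 in tumors 2 to 5. A separate ribosomal RNA model (CT010467.1) held 5.08% of gene counts in tumor 3, 1.68% in tumor 2 and at most 0.0439% elsewhere. All 10 pairs of tumors differed by more than sampling noise, with a chi-square per gene of 25.1 to 341 over 16003 genes, so no pair was treated as 1 library deposited again. That does not show that the samples came from separate animals.

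The most abundant messages of the tumors coded for respiration, for translation and for a secreted phosphoprotein. Of the 30 protein-coding genes of highest mean level, 12 coded for ribosomal proteins, 7 were mitochondrially encoded and 11 had other roles. The 100 largest genes held 36.8, 29.3, 30.2, 22.7 and 21.9% of gene counts in tumors 1 to 5. Spp1, which codes for osteopontin, a matrix-bound phosphoprotein and cytokine made by tumor cells and macrophages, ranked second (ENSMUSG00000029304, chromosome 5, 104435118 to 104441050, mm10). It stood at 2306, 3954, 3305, 2668 and 3778 RPKM in tumors 1 to 5, with a mean of 3202 ± 707 RPKM. Spp1 was lowest in tumor 1 and highest in tumor 2, and it exceeded every cytosolic ribosomal protein gene in the mean. Only mt-Co1, a subunit of cytochrome oxidase, had a higher mean, at 3345 ± 1576 RPKM.

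Among the other abundant genes were Eef1a1 and Eef2, the elongation factors of translation, at 2136 ± 460.4 RPKM and 955 ± 209 RPKM. Lgals1, which codes for galectin 1, a sugar-binding protein of mesenchymal cells, had 1719 ± 467 RPKM. B2m, the light chain of MHC class I, had 1518 ± 323 RPKM, and Actb, the cytoskeletal actin, 1099 ± 259.9 RPKM. Tpt1 (translationally controlled tumor protein), the chaperone Hsp90ab1 and the calcium-binding protein S100a6 had 717 ± 227 RPKM, 574 ± 50.3 RPKM and 543 ± 189.6 RPKM. Lyz2, the lysozyme of macrophages, was the most abundant gene of a host cell type, at 429, 794, 829, 716 and 795 RPKM in tumors 1 to 5. Tumors 2 to 5 differed little for Lyz2, and tumor 1 was lower. The ribosomal protein genes of this set ran from Rplp1 (2051 ± 869 RPKM) through Rpl4 (1127 ± 155 RPKM), Rpl32 (865 RPKM), Rps3a1 (790.1 RPKM), Rpl8 (725 RPKM), Rps15 (721 RPKM), Rpl17 (653 RPKM), Rps12 (651 RPKM), Rpl7 (500.3 RPKM) and Rps29 (480.3 RPKM) to Rps21 (471 ± 136 RPKM). Reads that align equally well to a processed copy of such a gene are set aside in this kind of counting. Levels of ribosomal protein genes relative to one another and to other genes, such as Spp1, are therefore uncertain.

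**Figure D1:**
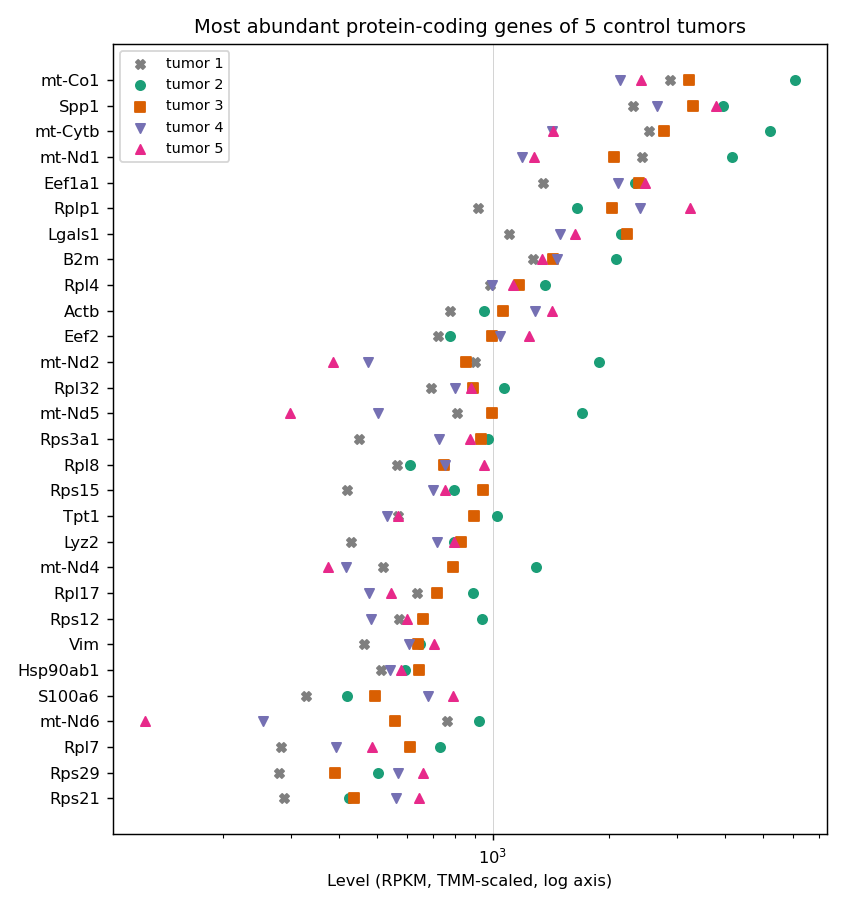
Protein-coding genes of highest mean level (29 of the first 30), from top to bottom, with the level of each control tumor in RPKM on a log axis and 1 symbol per tumor. Spp1 lies at 2306 to 3954 RPKM, and tumor 2 is highest for all 7 mitochondrially encoded genes.

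The mitochondrially encoded genes varied widely between tumors, with a median SD of log2 level of 1.10 over tumors 2 to 5, beside 0.26 for 20 ribosomal protein genes and 0.22 for all 9736 named protein-coding genes at 2 RPKM or more. They held 4.02, 8.85, 6.93, 4.32 and 3.53% of gene counts in tumors 1 to 5, highest in tumor 2 and lowest in tumor 5. mt-Cytb, a subunit of respiratory complex III, stood at 2538, 5212, 2781, 1424 and 1428 RPKM, and mt-Nd1, of complex I, at 2434, 4157, 2060.3, 1190.2 and 1275 RPKM. The other complex I genes of the set, mt-Nd2, mt-Nd5, mt-Nd4 and mt-Nd6, had means of 901, 862, 679 and 524 RPKM. Both ribosomal RNAs of the mitochondrion were higher still, with mt-Rnr2 at 15008, 31940.0, 27044, 15261 and 12861 RPKM and mt-Rnr1 at 6218, 16827, 17268, 6766 and 4640.4 RPKM. By contrast, mt-Co2, mt-Co3, mt-Atp6, mt-Atp8, mt-Nd3 and mt-Nd4l, which code for further subunits of the same complexes, had means between 1.21 and 14.8 RPKM. These genes have near-identical copies in the nuclear genome, and the part of that in their low counts was not tested. Among them mt-Atp6 was the most uneven, at 2.84, 25.1, 10.6, 1.17 and 0.978 RPKM, high in tumors 2 and 3 and low in tumors 4 and 5.

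Krt20, a keratin of the mature gut lining, was the epithelial gene that these tumors expressed in quantity (ENSMUSG00000035775, chromosome 11, 99428403 to 99438150, mm10). Its level was 96.7, 96.3, 92.3, 79.0 and 93.3 RPKM in tumors 1 to 5, a mean of 91.5 ± 7.26 RPKM. The 5 tumors lay close together, with tumor 4 lowest. Krt18, a keratin of simple epithelia, stood at 9.41, 6.90, 6.67, 8.94 and 14.3 RPKM and was highest in tumor 5. Krt8, the usual partner of Krt18, reached only 1.48, 0.344, 0.276, 0.329 and 1.68 RPKM, and Krt19 2.08, 0.589, 0.0417, 0.267 and 2.25 RPKM. Both of these were below the background limit or within a few times of it in tumors 1 to 4, while tumor 5 stood well above its background limit of 0.100 RPKM. Krt7, a keratin of ducts, ran from 0.0987 to 2.66 RPKM and was above background in 4 tumors. Krt20 made up 88.5% of the summed level of the 5 keratins.

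The rest of an epithelial program was sparse in tumors 1 to 4, while in tumor 5 most junction and adhesion genes stood above background. Of 11 such genes, 4, 5, 5, 5 and 10 were above background in tumors 1 to 5. In all 5 tumors 3 were, beside 11339 of 20464 protein-coding genes other than receptor genes. The 3 genes were Tjp1, which codes for the tight junction scaffold ZO-1 (33.4 ± 3.45 RPKM), Jup, for plakoglobin (3.22 ± 0.649 RPKM), and Cdh1, for E-cadherin (1.02 ± 0.796 RPKM). Cdh1 stood at 2.41, 0.809, 0.372, 0.737 and 0.757 RPKM, so its mean was raised by tumor 1. Epcam, an adhesion molecule that marks most carcinomas, stood at 2.20, 0.268, 0.176, 0.226 and 0.627 RPKM, and Cldn4, a claudin of tight junctions, at 1.70, 0.0926, 0, 0.164 and 0.489 RPKM. Epcam was above background in 3 tumors and Cldn4 in 1. Ocln, which codes for the tight junction protein occludin, was at background in every tumor.

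Genes of intestinal differentiation were low, with 6, 9, 6, 11 and 11 of 18 above background in tumors 1 to 5. Of 20464 protein-coding genes other than receptor genes, 12218, 14455, 14752, 14971 and 15447 were above background in the same tumors. Of 18, 4 stood above background in all 5 tumors and 5 in none. The highest was Lgals4, which codes for a galectin of the gut lining, at 2.27 ± 0.856 RPKM. Ephb2, a receptor of crypt cells, stood at 2.04, 1.60, 1.84, 1.89 and 1.95 RPKM, and Vil1 and Muc2, which code for the brush border protein villin and for the gel mucin of goblet cells, had 0.833 and 0.620 RPKM in the mean. Cdx2, the transcription factor that sets intestinal identity, stood at 2.90, 0.446, 0.103, 0.702 and 0.295 RPKM and Lgr5, a stem cell receptor, at 1.52, 0.229, 0.0452, 0.227 and 0.113 RPKM. For both, tumor 1 was the highest, and its own background limit was 1.89 RPKM. Fabp2, which codes for a fatty acid carrier of enterocytes, differed most between the 5 tumors, and Phgr1 between tumors 2 to 5, each with no read in tumors 3 and 5. Cdx1, Car1, Hnf4a, Tff3 and Slc26a3 were at background in all 5.

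Mesenchymal genes were high. All 14 stood above background in each tumor, with a summed level of 2491, 3976, 4197, 3756 and 4316 RPKM in tumors 1 to 5, lowest in tumor 1. Vim, the intermediate filament vimentin, had 613 ± 90.6 RPKM, and Fn1, the matrix protein fibronectin, 283 ± 56.5 RPKM. Cd44, a receptor for hyaluronan, had 82.1 ± 14.3 RPKM and the actin-binding gene Tagln2 64.1 ± 10.4 RPKM. The transcription factors of epithelial-mesenchymal transition followed at lower levels, with Twist1 at 24.7 ± 3.47 RPKM, Zeb2 at 19.9 ± 2.99 RPKM, Zeb1 at 9.08 ± 1.01 RPKM, Snai2 at 6.47 ± 0.837 RPKM and Snai1 at 3.72 ± 0.612 RPKM. S100a4, a calcium-binding protein of motile cells, was the most uneven of the list, at 198, 275, 277, 457 and 622 RPKM, highest in tumors 4 and 5. Host fibroblasts and macrophages express many of these genes too, and the part of each cell type cannot be told apart in these samples.

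**Figure D2:**
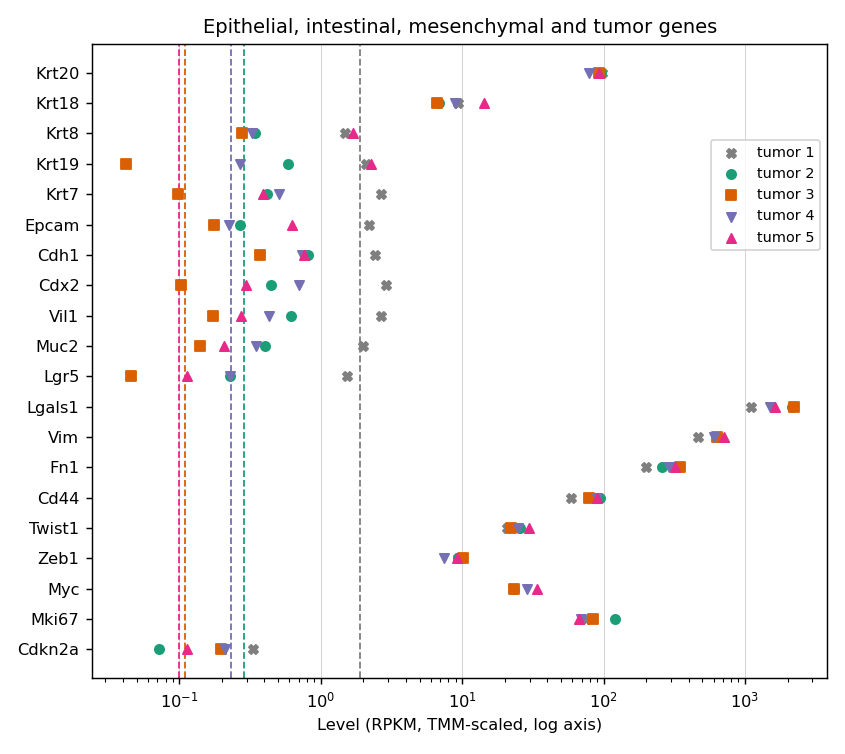
Levels of epithelial, intestinal, mesenchymal and tumor genes in each control tumor, in RPKM on a log axis, with dashed lines at each tumor's background limit in that tumor's color. Krt20 lies at 79.0 to 96.7 RPKM among mesenchymal genes, while Krt19, Epcam, Cdx2 and Lgr5 reach at most 2.90 RPKM.

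Genes of growth control were expressed at middle levels. Of 25 oncogenes and tumor suppressors, 22 stood above background in all 5 tumors. Ccnd1, which codes for the G1 cyclin D1, was the highest, at 71.0, 72.3, 87.1, 105 and 128 RPKM in tumors 1 to 5, lowest in tumors 1 and 2 and highest in tumor 5. Ctnnb1, which codes for beta-catenin, had 61.0 ± 14.5 RPKM, Nras 32.8 ± 5.76 RPKM, Myc 26.4 ± 4.91 RPKM and Met 24.0 ± 3.04 RPKM. Trp53 and its target Cdkn1a, which codes for the cell cycle inhibitor p21, had 12.9 ± 2.78 RPKM and 11.8 ± 3.07 RPKM. Cdkn2a, which codes for the cell cycle inhibitor p16 and for ARF, stood at 0.330, 0.0717, 0.198, 0.212 and 0.114 RPKM and was above background in tumors 3 and 5 only. Its neighbour Cdkn2b had 0.381 ± 0.0711 RPKM. Mycn, a relative of Myc in nervous tissue, was at background in every tumor.

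Cell cycle genes stood above background in all tumors, 20 of 20. Mki67, the proliferation marker, stood at 75.3, 120.2, 84.5, 69.4 and 66.8 RPKM, highest in tumor 2. Pcna, the clamp of DNA replication, and Top2a, which untangles DNA, had 72.4 ± 14.7 RPKM and 67.8 ± 14.4 RPKM. Cenpe, which codes for a mitotic motor, had the largest spread of the list, at 33.0, 51.2, 31.1, 30.1 and 25.5 RPKM, again highest in tumor 2. All 18 genes of glycolysis and hypoxia were above background, led by Pkm (pyruvate kinase, 184 ± 19.0 RPKM) and Ldha (lactate dehydrogenase, 174 ± 25.3 RPKM). Pgam1, of lower glycolysis, stood at 15.2, 15.7, 19.4, 29.9 and 31.0 RPKM and Car9, a hypoxia-induced carbonic anhydrase, at 2.26, 2.96, 1.64, 2.07 and 1.27 RPKM. These 2 genes had the largest SDs of log2 level in this list, Pgam1 over all 5 tumors and Car9 over tumors 2 to 5.

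The m6A machinery, which writes, removes and reads N6-methyladenosine on RNA, was present throughout. All 11 genes of writers and erasers were above background in every tumor. Mettl3, the catalytic subunit of the writer, stood at 3.16, 3.64, 3.58, 3.59 and 3.97 RPKM, and the tumors lay within 3.16 to 3.97 RPKM (ENSMUSG00000022160, chromosome 14, 52294841 to 52305128, mm10). Mettl14, its RNA-binding partner, stood at 10.9, 10.5, 8.30, 7.45 and 7.33 RPKM, highest in tumors 1 and 2 (ENSMUSG00000028114, chromosome 3, 123368297 to 123386108, mm10). Rbm15, an adaptor of the complex, was the highest of these genes, at 22.5 ± 3.85 RPKM, and tumor 1 was lowest at 15.6 RPKM. The scaffolds Virma, Wtap and Zc3h13 had 15.2 ± 2.30 RPKM, 15.5 ± 2.19 RPKM and 11.6 ± 2.85 RPKM. Zc3h13 stood at 13.5, 13.9, 13.5, 8.95 and 8.04 RPKM, the largest spread of the list, with tumors 4 and 5 lower. Alkbh5, a demethylase, had 16.5 ± 3.42 RPKM and Fto 5.56 ± 0.723 RPKM. Of 10 readers, 8 were above background in all tumors, led by Hnrnpa2b1 (86.5 ± 19.2 RPKM), and by Ythdf3 (28.4 ± 6.79 RPKM) among the genes with a YTH domain. Igf2bp3, which codes for a reader more common in embryos, had 0.859 ± 0.301 RPKM and was above background in 4 tumors. Immediate early and heat shock genes, which handling of tissue can induce, were led by Hsp90aa1 (117 ± 33.9 RPKM), and Fos, the most uneven of them, stood at 3.86, 2.32, 2.07, 6.73 and 5.12 RPKM, highest in tumors 4 and 5.

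Fibroblast genes were present in all 5 tumors. All 16 stood above background in each, and their summed level was 264, 283, 325, 352 and 422 RPKM in tumors 1 to 5, highest in tumor 5. Col1a2 and Col3a1, which code for chains of fibrillar collagens I and III, led the list with 73.2 ± 20.3 RPKM and 73.1 ± 17.3 RPKM. Col1a1, the other chain of collagen I, stood at 23.9, 20.1, 22.1, 41.8 and 53.2 RPKM, the largest spread of the list, with tumors 4 and 5 above the other 3. Dcn, which codes for the collagen-binding proteoglycan decorin, stood at 21.1, 37.9, 45.3, 17.5 and 27.2 RPKM and was highest in tumors 2 and 3. Pdgfrb and Pdgfra, receptors of fibroblasts and pericytes, had 15.6 ± 4.38 RPKM and 7.58 ± 1.05 RPKM, and Pdpn (podoplanin) 16.05 ± 2.32 RPKM. Fap, a protease of activated fibroblasts, had 1.58 ± 0.380 RPKM.

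Matrix around cells was represented by all 20 matricellular and basement membrane genes. Besides Spp1, the highest were Timp1, an inhibitor of matrix proteases (224 ± 79.6 RPKM), Sparc (97.0 ± 15.6 RPKM) and the basement membrane collagen Col4a1 (74.1 ± 22.4 RPKM). Timp1 stood at 162, 179.5, 185, 235 and 358 RPKM, highest in tumor 5. Mmp9, a gelatinase of myeloid cells, was the most uneven of the list, at 5.08, 5.16, 2.21, 8.29 and 18.6 RPKM. Tumor 5 was highest and tumor 3 lowest for Mmp9. The CT26 cells may express such genes themselves, and their source cannot be told apart.

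Vessel genes were measured in every tumor. Of 15 blood endothelial genes, 12 stood above background in all 5 tumors and 15 in tumors 2 to 5. Among 20464 protein-coding genes other than receptor genes, 11339 and 13306 did so. Cdh5, which codes for the cadherin of endothelial junctions, led with 18.3 ± 4.76 RPKM, followed by Pecam1 (12.5 ± 1.40 RPKM) and by Plvap, of fenestrated vessels (9.68 ± 2.83 RPKM). The summed level was 64.4, 77.8, 87.0, 72.9 and 92.8 RPKM, highest in tumor 5. Vwf, the clotting factor stored by endothelium, ran from 0.139 to 1.31 RPKM, with tumor 1 highest. Of 12 genes of contractile cells and pericytes, 8 were above background in all tumors, led by Mcam (19.3 ± 5.03 RPKM) and Rgs5 (16.5 ± 3.69 RPKM). Acta2, the smooth muscle actin, had 6.67 ± 1.92 RPKM, while Cnn1 (calponin) and Tagln (SM22), of contractile cells, had 0.494 and 0.265 RPKM. Cnn1 was the most uneven of the list over 5 tumors and the muscle filament gene Des over tumors 2 to 5, with Des lowest in tumor 2, at 2.64 RPKM.

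Of 6 lymphatic vessel markers, 4 were at background in all 5 tumors. Lyve1 stood above background in all 5, and 1 further marker in tumors 2 to 5 only. Lyve1, a hyaluronan receptor that macrophages share, stood at 11.8, 14.8, 4.31, 8.27 and 12.1 RPKM, lowest in tumor 3. Prox1, the transcription factor that defines lymphatic endothelium, and Mmrn1 and Reln were at background in all 5 tumors. Ccl21a had no read in any tumor, which allows up to 0.666 RPKM in tumor 1 and 0.153 RPKM in tumor 5 at 3 reads, for counting error only. This chemokine gene has near-identical copies, whose reads this kind of counting sets aside.

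Skeletal muscle genes were measured in every tumor and were lowest in tumor 2. Their summed level was 101, 20.2, 119, 107 and 139 RPKM in tumors 1 to 5. Tumor 2 was far below the other 4, with a highest over lowest tumor of 6.84, while tumors 1, 3, 4 and 5 lay between 101 and 139 RPKM. Myh4, the myosin heavy chain of fast fibers, stood at 16.5, 1.38, 20.6, 12.1 and 21.9 RPKM (ENSMUSG00000057003, chromosome 11, 67238029 to 67260446, mm10). Acta1, the actin of skeletal muscle, stood at 15.8, 3.78, 29.5, 37.6 and 45.7 RPKM. Tumor 2 was the lowest for both, and Acta1 was highest in tumor 5. Ckm, the muscle creatine kinase, stood at 2.98, 0.289, 1.83, 2.37 and 3.98 RPKM, and Ttn, the giant spring protein of the sarcomere, at 6.03, 1.77, 8.69, 5.94 and 6.71 RPKM. Of the 15 genes, 14 were above background in each tumor, tumor 2 included. The other, Tnnc2 (troponin C), was above background in tumors 2 and 4 only. Among all named protein-coding genes at 1 RPKM or more in the other tumors, 12 exceeded 3 times their tumor 2 level (plus 0.1 RPKM) in each of the other 4 tumors. All 12 are known to be expressed in skeletal muscle. They are 8 of the list (Acta1, Myh4, Myh2, Tnnt3, Atp2a1, Ckm, Tcap and Ttn) and 4 genes outside it, Actn3, Mybpc1, Mybpc2 and Car3, which were named after their values were seen. Muscle of the body wall lies beside a flank tumor, and its part in these levels was not tested.

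Erythroid genes, which mark blood held in the tissue, were highest in tumors 5 and 2. Hbb-bs, an adult beta globin, stood at 48.8, 149, 58.3, 73.1 and 200.4 RPKM in tumors 1 to 5, a mean of 106 ± 66.0 RPKM (ENSMUSG00000052305, chromosome 7, 103826534 to 103828096, mm10). Hba-a1, an alpha globin, stood at 15.5, 32.0, 15.1, 18.3 and 54.5 RPKM and Hbb-bt, the other adult beta globin, at 3.02, 7.06, 4.73, 4.58 and 19.1 RPKM. Tumors 1, 3 and 4 were low for all 4 globin genes, and tumor 5 was the highest for each. Alas2, the heme synthesis enzyme of red cell precursors, had 7.69 ± 1.84 RPKM, and Slc4a1, a membrane anion exchanger of red cells, 0.741 RPKM. Reads that align equally well to both members of a globin pair are set aside, so their split is uncertain. Platelet genes were led by Pf4, a chemokine of platelets and some macrophages, at 17.4, 14.2, 7.50, 10.0 and 18.1 RPKM, lowest in tumor 3. Ppbp, another platelet chemokine, had 1.38 RPKM and Gp1bb, of the platelet receptor for von Willebrand factor, was at background in every tumor.

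Fat, skin and nerve added little. Of 8 adipocyte genes 2 stood above background in all 5 tumors, Fabp4, a fatty acid carrier that vessels and macrophages share (10.0 ± 1.15 RPKM), and Cfd, or adipsin (0.951 RPKM). Adipoq, the hormone that defines fat cells, stood at 1.12, 0.122, 0, 0.108 and 0.322 RPKM, and Retn and Cidec, the most uneven of the list, had means of 0.623 and 0.452 RPKM. Of 10 keratinocyte genes, Krt10 was the highest at 1.44 ± 0.507 RPKM, and Dsg1a, Dsc3, Lor, Flg and Ivl were at background in all tumors. Krt14 and Krt5, keratins of basal skin, stood at 2.31, 0.335, 0.132, 0.338 and 0.177 and 2.20, 0.459, 0.0703, 0.384 and 0.142 RPKM. Tumor 1 was the highest for both. S100b led the nerve genes with 0.982 RPKM, and Sox10, their transcription factor, had 0.577 RPKM. Summed over each list, tumor 1 was highest for adipocyte, keratinocyte and nerve genes, and its higher background moves with all 3. With the median of the receptor genes subtracted, the keratinocyte sums became 7.18, 2.19, 1.94, 2.44 and 1.48 RPKM, and the nerve sums 4.73, 2.78, 2.00, 2.50 and 2.51 RPKM. Tumor 1 remained the highest in both. Levels below that median were set to 0, so background above it stays in these sums. The subtraction therefore cannot show whether tumor 1 differs beyond its background. In tumor 1, 4 of 10 keratinocyte genes and 2 of 6 nerve genes stood above its background limit.

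The sex of the source showed alike in each library. Xist, the RNA of the inactive X chromosome, stood at 16.3, 28.5, 28.3, 20.4 and 18.3 RPKM, lowest in tumor 1. The Y-linked genes Ddx3y and Eif2s3y had no read in any tumor, and Kdm5d and Uty at most 3 reads in a tumor. At 3 reads Ddx3y would have stood at 0.111 RPKM in tumor 1 and 0.0256 RPKM in tumor 5.

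**Figure D3:**
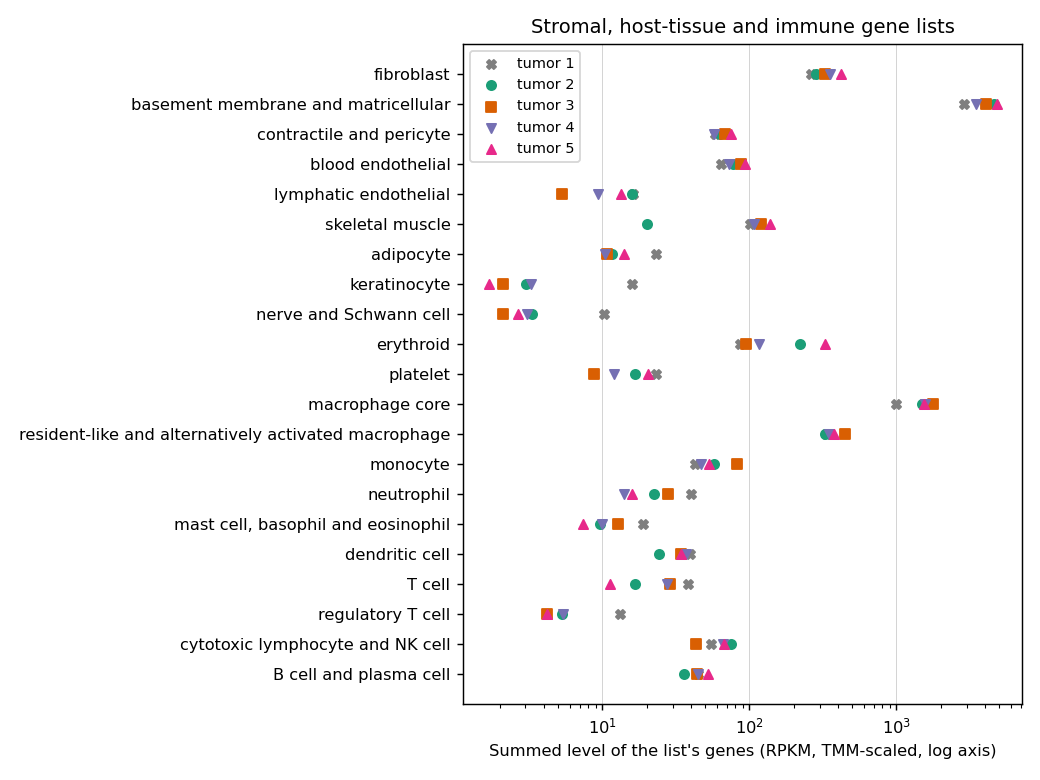
Summed level of the genes of each stromal, host-tissue and immune list in each control tumor, in RPKM on a log axis, with 1 symbol per tumor. Tumor 2 stands apart for skeletal muscle at 20.2 RPKM, tumor 1 for keratinocyte genes at 15.9 RPKM, and macrophage genes lie far above lymphocyte genes in all 5.

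Macrophage genes dominated the immune part of every tumor. All 16 core macrophage genes stood above background in each, and they summed to 1001, 1495, 1762, 1567 and 1547 RPKM in tumors 1 to 5, against 38.4, 16.6, 28.7, 27.7 and 11.3 RPKM for 17 T cell genes. A summed level follows its largest members, and Lyz2 made up 48.3% of the macrophage sum. Ctss, which codes for the lysosomal protease cathepsin S, had 203 ± 41.1 RPKM. The complement genes C1qa, C1qb and C1qc, made by tissue macrophages, had 166 ± 40.4 RPKM, 96.7 ± 26.04 RPKM and 66.1 ± 18.9 RPKM. Csf1r, the receptor that macrophages need to survive, stood at 11.9, 17.0, 31.2, 23.7 and 23.1 RPKM, the largest spread of the list, lowest in tumor 1 and highest in tumor 3. Adgre1, which codes for the F4/80 antigen, had 16.03 ± 3.20 RPKM and Cd68, of lysosomes, 29.5 ± 4.38 RPKM. Aif1, an actin-bundling gene of macrophages, was the most uneven over tumors 2 to 5, at 10.6, 7.35, 12.2, 10.8 and 5.71 RPKM. The 6 genes of all leukocytes were above background in every tumor, led by Cd53 (28.1 ± 8.97 RPKM), and Ptprc, which codes for CD45, had 7.50 ± 1.91 RPKM. Coro1a, an actin regulator of leukocytes, was lowest in tumor 1, at 4.16 RPKM, and Cd52 highest in tumor 3, at 16.6 RPKM.

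Genes of resident-like and alternatively activated macrophages were present beside the core. Apoe, a lipid carrier, led with 168, 152, 300.4, 218 and 215 RPKM, highest in tumor 3. Mrc1, the mannose receptor CD206, had 63.6 ± 13.1 RPKM and Arg1, which breaks down arginine, 40.5 ± 4.77 RPKM. Cd163, the hemoglobin scavenger receptor of resident macrophages, stood at 9.76, 7.50, 4.74, 4.97 and 7.04 RPKM in tumors 1 to 5, a mean of 6.80 ± 2.06 RPKM (ENSMUSG00000008845, chromosome 6, 124304656 to 124330527, mm10). It was highest in tumor 1 and lowest in tumors 3 and 4. Its mean was below those of Apoe, Mrc1, Arg1, Stab1 and Maf and above those of Gpnmb, Trem2 and Folr2. Timd4, another marker of resident macrophages, and Retnla, of alternative activation, were the most uneven, with 1.78, 0.619, 0.711, 1.05 and 0.225 and 0.967, 0.421, 1.29, 2.15 and 1.19 RPKM. Chil3, also of alternative activation, had 0.842 RPKM.

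Monocyte genes had Plac8 as their highest member (27.6 ± 9.24 RPKM) and Ccr2, the receptor for entry into tissue, at 6.60 ± 2.12 RPKM. Ly6c2, the antigen of classical monocytes, reached only 0.861 RPKM. Cx3cr1, the fractalkine receptor of patrolling monocytes and many macrophages, stood at 2.32, 2.50, 10.2, 3.25 and 2.29 RPKM (ENSMUSG00000052336, chromosome 9, 119901616 to 120069879, mm10). Tumor 3 was the single high tumor for Cx3cr1, as it was for Apod, a lipocalin of stromal cells named after its values were seen, at 4.42, 4.67, 15.02, 2.52 and 4.71 RPKM. No other named protein-coding gene exceeded 3 times its level in every other tumor in tumor 3, allowing for 0.1 RPKM and at 2 RPKM or more.

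Granulocyte genes were low. The neutrophil list was led by S100a9 and S100a8, calcium-binding alarm proteins, at 15.2, 11.0, 16.7, 5.70 and 7.66 RPKM and 8.63, 5.69, 6.35, 3.07 and 3.84 RPKM. Both were highest in tumors 1 and 3 and lowest in tumors 4 and 5. Csf3r, the receptor for granulocyte growth factor, had 2.38 ± 0.727 RPKM, Ly6g, the defining surface antigen, stood at 2.26, 0.803, 0.0820, 0.474 and 0.189 RPKM, and the granule genes Mpo and Elane were at background in all tumors. Mast cell genes were led by Cpa3, a granule protease, at 3.06, 1.94, 4.18, 1.08 and 1.20 RPKM, highest in tumor 3. The eosinophil granule gene Epx was at background in each tumor, and Siglecf, an eosinophil receptor, was above background in tumor 4 alone, at 0.444 RPKM.

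Genes of T cells and regulatory T cells stood at a few RPKM or less. Of 17 T cell genes, 9 were above background in all 5 tumors and 15 in tumors 2 to 5. Trbc2, a constant segment of the T cell receptor, was the highest, at 5.58, 2.55, 6.48, 3.798 and 1.60 RPKM, and Cd3e, of the receptor complex, stood at 1.70, 0.577, 1.08, 0.924 and 0.261 RPKM. Cd8a, the coreceptor of cytotoxic T cells, stood at 2.07, 1.02, 2.87, 2.74 and 0.440 RPKM and its partner Cd8b1 at 4.56, 1.25, 2.40, 2.07 and 0.419 RPKM. Cd4, which marks helper T cells and some macrophages, stood at 3.45, 0.792, 0.728, 0.799 and 0.452 RPKM. Tumor 5 was the lowest for Trbc2, Cd3e, Cd8a, Cd8b1 and Cd4. Tumor 1 had the highest T cell sum, and with the receptor median subtracted the sums were 22.9, 15.1, 28.4, 26.2 and 10.9 RPKM, so that tumors 3 and 4 were then the highest and tumor 5 again the lowest. Among regulatory T cell genes, Ctla4 was the highest, at 3.81, 1.66, 0.895, 1.30 and 1.39 RPKM, and Foxp3, their transcription factor, stood at 1.22, 0.423, 0.642, 0.542 and 0.592 RPKM. Ccr8, a chemokine receptor of these cells, was above background in tumor 1 alone, and Il2ra, the high-affinity receptor for interleukin 2, ran from 0.490 to 2.16 RPKM.

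The granule genes Gzmb, Prf1 and Gzma had higher means than any of the 17 T cell genes. Gzmb, the protease granzyme B, stood at 12.4, 25.6, 10.1, 19.3 and 22.0 RPKM and Prf1, the pore-forming protein perforin, at 12.7, 19.6, 9.33, 20.9 and 22.8 RPKM. Both were lowest in tumor 3, next in tumor 1, and at or above 19.3 RPKM in tumors 2, 4 and 5. Gzma, granzyme A, had 8.24 ± 3.86 RPKM, highest in tumor 2. Nkg7, a granule protein, and Klrd1, a receptor subunit of NK cells, had 2.91 ± 1.32 RPKM and 3.38 ± 0.766 RPKM, and Ncr1, which codes for the NK cell receptor NKp46, 1.78 ± 0.506 RPKM. Ifng, which codes for interferon-gamma, was the most uneven of these genes, at 1.79, 0.455, 0.776, 0.421 and 0.0686 RPKM, above background in 3 tumors and lowest in tumor 5. Tumor 5 had the lowest Cd8a and Ifng levels of the 5, while its Gzmb and Prf1 levels were among the higher ones. Gzmc, a further granzyme outside the list and named after its values were seen, stood at 25.9, 79.1, 19.1, 46.6 and 60.0 RPKM, highest in tumor 2.

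B cell and dendritic cell genes were scarce. Ms4a1, which codes for CD20, was at background in every tumor. Xbp1 and Sdc1 led the B cell list with 25.6 ± 6.42 RPKM and 8.26 ± 2.89 RPKM, but both are expressed by other secretory or tumor cells. Ighm, the heavy chain of IgM, was the most uneven over tumors 2 to 5, at 2.97, 1.29, 6.02, 4.50 and 1.58 RPKM, and was high in tumors 3 and 4. The dendritic list was led by Fscn1, an actin-bundling gene that tumor cells share (18.3 ± 4.77 RPKM), and by Irf8, a transcription factor of the lineage (4.08 ± 0.802 RPKM). Flt3, Xcr1 and Clec9a, of conventional dendritic cells, had 0.546, 0.452 and 0.817 RPKM in the mean. Itgax, which codes for CD11c, stood at 2.33, 1.52, 3.83, 2.22 and 1.33 RPKM, highest in tumor 3. Cd209a was highest in tumor 1, at 1.95 RPKM, and at most 0.313 RPKM elsewhere.

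The target of the treatment and its ligand were both measurable. Pdcd1, which codes for PD-1, stood at 2.102, 0.915, 2.52, 2.90 and 0.690 RPKM in tumors 1 to 5, above background in each (ENSMUSG00000026285, chromosome 1, 94038305 to 94052553, mm10). Tumors 3 and 4 were highest and tumor 5 lowest for Pdcd1, and over tumors 2 to 5 it had the largest spread of the 10 checkpoint receptors. Cd274, which codes for PD-L1, stood at 8.85, 5.66, 7.53, 10.8 and 6.24 RPKM, highest in tumor 4 and lowest in tumor 2 (ENSMUSG00000016496, chromosome 19, 29367455 to 29388095, mm10). Pdcd1lg2, for the second ligand PD-L2, ran from 0.429 to 1.77 RPKM, the most uneven ligand over tumors 2 to 5. The highest checkpoint receptor was Vsir, which codes for VISTA of myeloid cells, at 9.67 ± 2.72 RPKM, followed by Havcr2, for TIM-3 (7.16 ± 1.10 RPKM), and Tigit (4.93 ± 0.898 RPKM). Lag3 stood at 3.94, 0.518, 1.28, 1.58 and 0.758 RPKM, and Tox, a transcription factor of exhausted T cells, was above background in 3 tumors, at 1.19, 0.309, 0.660, 0.508 and 0.0759 RPKM. Cd47, the signal that restrains uptake by macrophages, was the highest of the ligands, at 40.0 ± 8.20 RPKM, and Fgl1, a ligand of LAG-3, was above background in tumor 1 alone.

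MHC class II genes were high in tumors 3 and 4 and low in the other 3. Of the immune lists they had the largest median SD of log2 level over tumors 2 to 5, at 1.43, beside 0.22 for all genes at 2 RPKM or more. Class II molecules present peptides to helper T cells on macrophages, dendritic cells and B cells, and cells exposed to interferon-gamma can express them as well. Cd74, the invariant chain that guides class II molecules, stood at 17.8, 17.8, 145, 84.8 and 16.2 RPKM in tumors 1 to 5. The chain genes H2-Eb1, H2-Ab1 and H2-Aa stood at 3.28, 2.90, 35.3, 18.4 and 3.04 RPKM, 5.04, 3.54, 28.1, 15.4 and 2.51 RPKM and 3.20, 3.25, 25.4, 14.6 and 2.76 RPKM. Tumors 3 and 4 were high and tumors 1, 2 and 5 low in all 4 genes, with tumor 3 the highest. H2-DMb1, of the peptide loading complex, stood at 2.07, 0.800, 3.95, 4.54 and 0.819 RPKM, and its partner H2-DMa at 2.07, 1.90, 3.65, 3.57 and 2.09 RPKM. For H2-DMb1 tumors 3 and 4 were again the highest, and tumor 1 lay between them and tumors 2 and 5. Ciita, the master activator of class II genes, stood at 1.64, 0.459, 1.25, 1.11 and 0.289 RPKM. Its tumor 1 level lay below that tumor's background limit of 1.89 RPKM, and tumors 3 and 4 exceeded tumors 2 and 5. H2-Oa was above background in 1 tumor only. The summed level of the 8 genes was 35.8, 30.7, 243, 143 and 27.7 RPKM, and its highest over lowest tumor was 8.76.

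Summed markers of the cells that carry class II molecules mostly did not share that pattern. Only the core macrophage sum was highest in tumors 3 and 4, and its tumor 4 level lay close to that of tumor 5. The core macrophage sum was 1762 and 1567 RPKM in tumors 3 and 4, beside 1001, 1495 and 1547 RPKM in tumors 1, 2 and 5. The dendritic sum was 39.2, 24.4, 34.4, 36.8 and 34.5 RPKM and the B cell and plasma cell sum 44.8, 35.9, 44.0, 44.8 and 52.6 RPKM in tumors 1 to 5. With the receptor median subtracted, the dendritic sums were 26.7, 23.2, 34.1, 35.6 and 34.2 RPKM, lower in tumors 1 and 2 than in tumors 3, 4 and 5. The B cell and plasma cell sums were then 33.0, 34.7, 43.8, 43.6 and 52.3 RPKM, highest in tumor 5. Ms4a1 was at background in tumors 2 to 5, and 11 of 14 dendritic genes were above background in those tumors. Xbp1 made up 57.5% of the B cell sum and Fscn1 54.1% of the dendritic sum, and other cells express both. Single genes of these lists were mixed. Ighm was highest in tumors 3 and 4 and Itgax in tumor 3, while Cd209a was highest in tumor 1. The part of these cells in the class II levels was not tested.

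The promoters of H2-Aa, H2-Eb1 and H2-DMb1 are shown as those of 3 class II genes in which tumors 3 and 4 exceeded tumors 2 and 5. The same order held for H2-Ab1, H2-DMa, Cd74 and Ciita, whose promoters are not shown. They run from 250 bases before to 50 after the start of the gene, read 5′ to 3′ on the gene's strand, from RefSeq on GRCm38.p6 (the C57BL/6J reference, not the BALB/c strain of the tumors). Their places are chr17:34287774-34288073 (minus strand), chr17:34305617-34305916 (plus strand) and chr17:34152941-34153240 (plus strand). Capitals mark the letters ATTGG, the core of the Y box, TGACGTCA, a cAMP response element that X2 boxes resemble, and TGATGATG, each searched on both strands.
H2-Aa: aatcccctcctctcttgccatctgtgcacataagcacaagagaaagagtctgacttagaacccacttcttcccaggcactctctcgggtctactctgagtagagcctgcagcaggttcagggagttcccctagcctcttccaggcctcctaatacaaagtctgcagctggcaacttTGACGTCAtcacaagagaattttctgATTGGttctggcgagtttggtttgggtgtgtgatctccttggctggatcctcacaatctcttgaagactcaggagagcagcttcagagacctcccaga
H2-Eb1: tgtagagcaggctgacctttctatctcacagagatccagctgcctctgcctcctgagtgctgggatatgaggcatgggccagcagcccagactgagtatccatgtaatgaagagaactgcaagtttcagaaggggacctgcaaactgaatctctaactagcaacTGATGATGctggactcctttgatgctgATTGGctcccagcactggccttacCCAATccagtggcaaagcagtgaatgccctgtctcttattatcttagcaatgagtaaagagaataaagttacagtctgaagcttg
H2-DMb1: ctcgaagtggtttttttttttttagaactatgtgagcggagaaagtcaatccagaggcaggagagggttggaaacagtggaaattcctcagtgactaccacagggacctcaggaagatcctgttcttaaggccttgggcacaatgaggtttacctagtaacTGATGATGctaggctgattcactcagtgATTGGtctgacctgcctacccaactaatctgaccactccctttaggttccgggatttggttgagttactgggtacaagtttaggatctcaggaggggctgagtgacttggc
ATTGG begins 48 bases before the start in H2-Aa, 59 and 35 before it in H2-Eb1 and 61 before it in H2-DMb1. TGACGTCA lies 74 bases before the start of H2-Aa. TGATGATG, picked after the sequences of H2-Eb1 and H2-DMb1 were read, lies 86 and 89 bases before theirs. Of 32851 RefSeq promoter windows of this length, 37.4% hold ATTGG, 1.79% TGACGTCA and 1.44% TGATGATG. These matches are a description of letters, and no binding was measured.

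**Figure D4:**
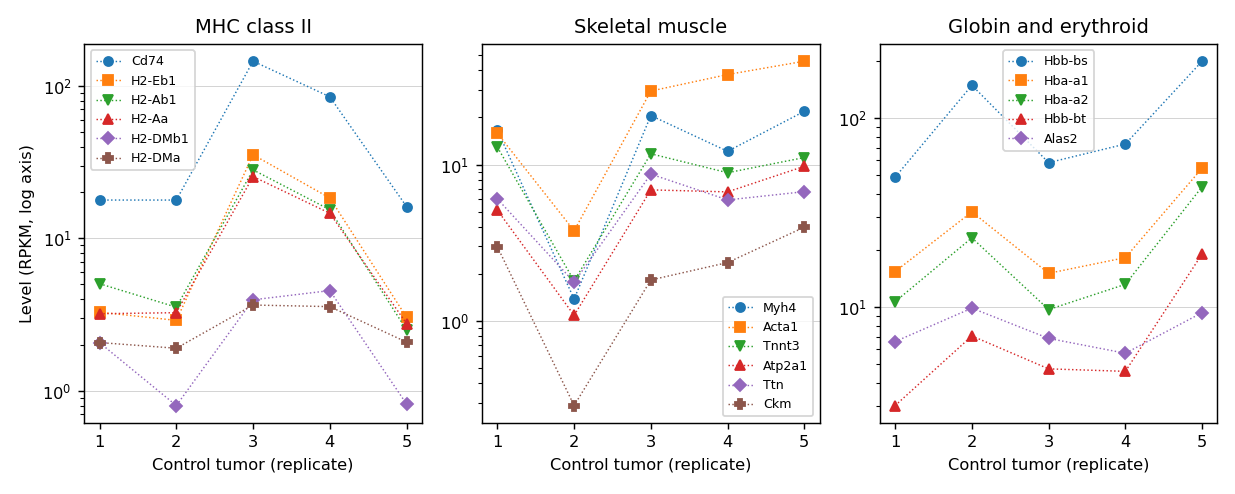
Levels of MHC class II, skeletal muscle and erythroid genes in control tumors 1 to 5, in RPKM on log axes, with dotted lines only to join the points of a gene. Class II chain genes are high in tumors 3 and 4, muscle genes are low in tumor 2, and globin genes are highest in tumor 5 and next in tumor 2.

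Class I genes were measured in all tumors, and all 14 stood above background in each. They varied less than class II genes but more than most genes. Their median SD of log2 level over tumors 2 to 5 was 0.41, beside 0.22 for all genes at 2 RPKM or more. H2-D1 and H2-K1, heavy chain genes, stood at 207, 215, 331, 372 and 309 RPKM and 47.5, 56.1, 87.3, 114 and 92.2 RPKM, with tumor 4 highest and tumors 1 and 2 lowest. Psmb9, Psmb8 and Psmb10, of the immunoproteasome, stood at 5.17, 5.35, 11.0, 11.8 and 6.01 RPKM, 8.34, 7.11, 15.1, 17.8 and 10.3 RPKM and 9.74, 12.3, 20.3, 27.5 and 15.8 RPKM, and tumors 3 and 4 were the highest for all 3. Tap1, the peptide transporter, was highest in tumor 4, at 18.7 RPKM, and lowest in tumor 2, at 7.52 RPKM. B2m did not share this order, with tumor 2 the highest, at 2079.6 RPKM. Heavy chain genes of BALB/c differ in sequence from the reference, and reads that align to several class I genes are set aside, so their levels are uncertain.

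Interferon response genes other than those of antigen presentation were above background in all 5 tumors, 19 of 19. Gbp2, a guanylate-binding protein that attacks pathogens inside cells, was the highest, at 34.8, 44.2, 57.2, 70.9 and 23.1 RPKM. Cxcl9, which codes for a chemokine that draws T cells, was the most uneven, at 11.0, 6.77, 17.9, 16.2 and 3.09 RPKM. Irf1, a transcription factor of the response, stood at 12.4, 11.5, 21.3, 24.5 and 13.8 RPKM. Tumors 3 and 4 were the highest for all 3 genes, and tumor 5 the lowest for Gbp2 and Cxcl9. Ifit1 and Isg15 did not follow that order. Ifit1, which binds viral RNA, stood at 5.38, 14.6, 7.86, 10.0 and 9.55 RPKM, highest in tumor 2 and lowest in tumor 1, and Isg15, a ubiquitin-like protein, at 8.94, 13.5, 14.3, 15.9 and 16.9 RPKM, highest in tumor 5.

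Chemokines of myeloid cells led the 28 chemokine and cytokine genes. Ccl6 was the highest, at 84.6, 115, 63.1, 71.8 and 121 RPKM, and Ccl2, which draws monocytes, stood at 25.97, 44.8, 28.3, 30.6 and 47.0 RPKM. Ccl7, a close relative of Ccl2 and the most uneven over tumors 2 to 5, stood at 20.7, 44.9, 15.05, 23.6 and 36.5 RPKM. Tumors 2 and 5 were the highest for all 3 of them. Ccl8, a neighbour of the same family, was by contrast highest in tumors 3 and 4, at 22.3, 21.6, 38.7, 40.8 and 25.99 RPKM. Csf1, the growth factor of macrophages, had 26.7 ± 6.31 RPKM, Cxcl14 16.01 ± 5.23 RPKM and Il1b, of inflammation, 7.93 ± 3.36 RPKM. Il6, Il10, Csf2 and Csf3 had means of 0.647, 0.524, 0.537 and 0.544 RPKM. Tslp, an epithelial cytokine, was highest in tumor 1, at 3.05 RPKM, and at most 0.632 RPKM elsewhere.

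Across the 16003 genes that passed the count filter, the 5 tumors had a common biological coefficient of variation of 0.319. Without tumor 1 it was 0.219, over the 16680 genes that passed in tumors 2 to 5. The SD of log2(RPKM + 0.1) over the tumors had a median of 0.26 for the 9736 named protein-coding genes at 2 RPKM or more, and of 0.22 over tumors 2 to 5. In 16.3% of these genes the highest tumor was at least 2 times the lowest, and in 9.23% over tumors 2 to 5. Tumors 4 and 5 were the most alike in the order of 16003 genes (Spearman's rho across genes, which are not independent replicates, 0.9901), and tumors 1 and 5 the least (0.920). Over tumors 2 to 5, 58 genes (0.596%) had a highest tumor at least 4 times the lowest. By list, these held 10 of 13 muscle genes with a mean of 2 RPKM or more, 5 of 6 MHC class II genes, 7 of 11 mitochondrially encoded protein genes and 2 of 5 erythroid genes. They also held Mmp9, Cx3cr1, Cd8b1 and Cxcl9, and none of 16 core macrophage, 15 fibroblast, 12 blood endothelial, 20 cell cycle or 14 mesenchymal genes.

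The genes of largest spread were partly genes already described and partly single genes of 1 tumor. Gng7, which codes for a subunit of heterotrimeric G proteins, had the largest SD, at 1.84, 0.400, 0.225, 0.498 and 13.0 RPKM in tumors 1 to 5 (ENSMUSG00000048240, chromosome 10, 80948624 to 81014945, mm10). Plet1, a surface protein of progenitor cells, stood at 3.37, 3.45, 4.48, 5.30 and 37.6 RPKM (ENSMUSG00000032068, chromosome 9, 50494525 to 50505482, mm10). Tumor 5 was the single high tumor for both. Lars2, the mitochondrial leucyl-tRNA synthetase, stood at 45.3, 52.0, 129, 9.95 and 11.3 RPKM, highest in tumor 3 and lowest in tumors 4 and 5. The ribosomal RNA model CT010467.1, whose share of gene counts was 0.0439, 1.68, 5.08, 0.0254 and 0.0179%, was likewise highest in tumor 3 and next in tumor 2, and its part in the Lars2 reads was not tested. Ccdc150, Rps27rt and Ssxa1 stood at 2.81, 1.67, 5.17, 0.277 and 0.212, 3.62, 6.97, 2.69, 0.133 and 0.475 and 7.06, 1.73, 0.706, 0.679 and 0.406 RPKM, each lowest in tumors 4 and 5. Rps27rt rested on 7, 31, 13, 1 and 4 reads and Ssxa1 on 16, 9, 4, 6 and 4 reads. For these 2 genes the order of the low tumors is uncertain from counting error. Between the 15 genes of largest spread over 5 tumors and the 15 over tumors 2 to 5, 14 were shared, with Ssxa1 only in the first and Acta1 only in the second.

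**Figure D5:**
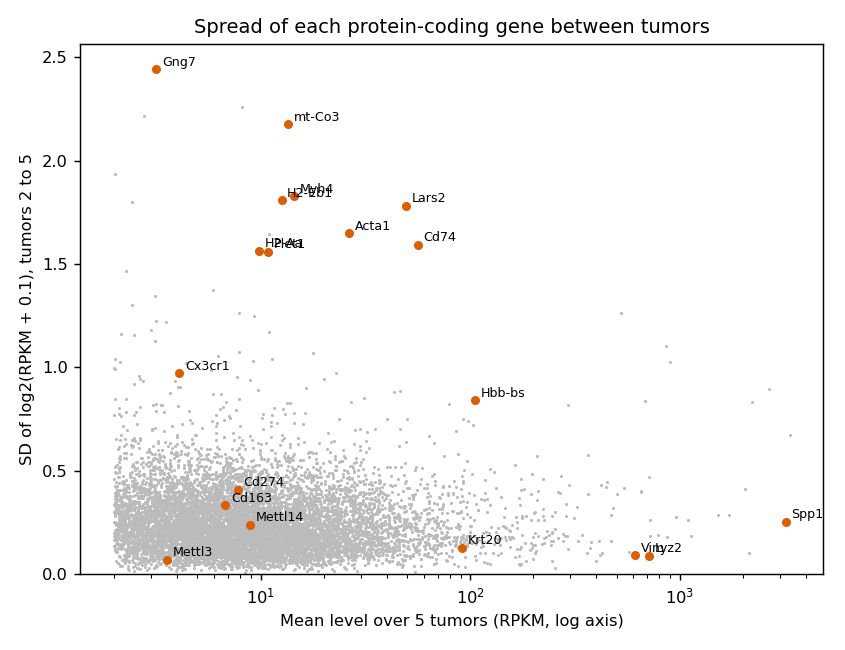
Mean level of named protein-coding genes at 2 RPKM or more (RPKM, log axis) against the SD of log2 level over tumors 2 to 5, with 1 point per gene and genes named in the text marked. Krt20, Vim, Lyz2 and Mettl3 lie low, and Gng7, MHC class II, muscle and some mitochondrially encoded genes lie high.

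Depth and background set how far these levels can be read in tumor 1. With 5.52 M gene reads, its limit of 1.89 RPKM was above the level that Cd3e, Foxp3 or Cdx2 reached in any other tumor. At 2 RPKM or more, 941 named protein-coding genes exceeded 3 times their level in every other tumor (plus 0.1 RPKM) in tumor 1, against 0, 2, 0 and 2 in tumors 2, 3, 4 and 5. Whether RNA, genomic DNA or counting gave those reads was not tested.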

How the data were processed

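Per the labels' protocols, whole tumors gave the RNA, which was fragmented and read on a HiSeq4000 in single reads of 75 nt, and both a ribosomal depletion kit and poly(A) isolation are mentioned. The submitters' processing notes name cutadapt 1.18, HISAT2 2.1.0 and HTSeq 0.11.2, besides DESeq2, and the mm10 build. Neither the annotation release nor the strand setting was found in those sources. The deposited values are the authors' unnormalized counts of reads per gene, with the same control columns in both tables. Between 56.8% and 86.2% of reads fell on the summary lines for reads outside genes, ambiguous, multiply aligned or unaligned reads, which entered no library size.

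Of 54752 gene IDs, 54723 matched GENCODE M21 (mm10), which gave symbols, positions and union exon lengths. Levels are RPKM on TMM-scaled library sizes (edgeR 4.0.16 in R 4.3.3, filterByExpr at a minimum count of 10). The common biological coefficient of variation came from an edgeR fit with an intercept alone, tested on simulated data. RPKM ranks genes on one scale, but a union exon length understates genes with long rare exons. The background was taken from olfactory and vomeronasal receptor genes. The 95% Wilson intervals of the shares of gene counts reached at most 0.0296 percentage points to each side, and they cover counting error only. There is 1 group, so no test was run. An alternative scaling by relative log expression came from edgeR, and size factors from DESeq2 1.42.0 were computed beside it.

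The members and lists (41 lists, 524 of 525 genes found) were chosen with earlier results of these data known. Genes were named by a rule: the 30 of highest mean RPKM among protein-coding genes with 300 exon bases or more, and the 15 of largest SD of log2(RPKM + 0.1) at a mean of 2 RPKM or more over 5 tumors and over tumors 2 to 5. Within each list the rule took the highest and most uneven members and those at background throughout, and it added Krt20, Krt18, Cd163, Hbb-bs, Mettl3, Mettl14, Pdcd1 and Cd274. Other list members were added as examples. A few genes are not reported here, though they count in the totals of their lists. Tumor BALB/c reads were aligned to a C57BL/6J reference, which can lower counts of genes that differ between the strains. The other 22 samples of the series were not used here.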

Additional observations from a re-analysis of the deposited data

Results flagged for a closer look

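Of 183 library measures, list sums and named genes, 38 had a highest or lowest tumor set apart from the other 4, with its gap to the nearest of them over 0.71 of the whole range. Chance alone sets about 1 in 20 groups of 5 apart, but that rate does not apply to the genes among them that were chosen for a large spread. In 29 of the 38 the tumor was tumor 1 as the highest, and in 2 tumor 1 as the lowest.

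For the library of tumor 1 these were its 78.6% of reads outside genes, the 1.19% of gene counts on pseudogenes, the 14.8% and 4.98% on the gene models Gm10800 and Gm21738, the receptor gene median and 95th percentile of 0.910 and 1.89 RPKM, and a summed receptor gene level of 5338 CPM. Its list sums set apart were 29.5 RPKM for intestinal differentiation, 23.1 RPKM for adipocyte, 15.9 RPKM for keratinocyte, 10.2 RPKM for nerve and 13.2 RPKM for regulatory T cell genes. Its single genes set apart as highest were Ctla4 (3.81 RPKM), Ccr8 (1.97 RPKM), Cd209a (1.95 RPKM), Ms4a1 (1.40 RPKM), Siglecf (1.59 RPKM), Fgl1 (2.27 RPKM) and Tslp (3.05 RPKM). To these came Cldn4 (1.70 RPKM), Fabp2 (2.20 RPKM), Cnn1 (1.41 RPKM), Vwf (1.31 RPKM), Reln (1.01 RPKM), Retn (2.20 RPKM), Dsg1a (1.29 RPKM), S100b (1.43 RPKM), Mycn (0.703 RPKM) and Ssxa1 (7.06 RPKM). All of them but Ssxa1, Ctla4, Tslp, Fgl1, Fabp2, Retn, Ccr8 and Cd209a lay below the background limit of that library. Lyz2 (429 RPKM) and Rbm15 (15.6 RPKM) were set apart as lowest in tumor 1.

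In tumor 5, Gng7 (13.0 RPKM), Plet1 (37.6 RPKM) and Hbb-bt (19.1 RPKM) were set apart as highest. In tumor 3 it was Cx3cr1 (10.2 RPKM), and in tumor 2 B2m (2079.6 RPKM) and mt-Co1 (6062 RPKM). Krt20 was set apart as lowest in tumor 4, at 79.0 RPKM, where its whole range was narrow.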

How the results depend on the processing

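With 1 group there was no comparison, and no paired analysis was possible because only control tumors were described. The common biological coefficient of variation was 0.615 with no filter on low counts and 0.603 at a mean of 1 CPM or more, against 0.319, and it ran from 0.219 to 0.386 when each tumor was left out in turn. The share of gene counts in the 100 largest genes was 14.5% in place of 28.2% when mitochondrial genes and genes over 1% of counts were left out. Of the 30 most abundant genes, 14 remained when unnamed and noncoding genes were admitted and 16 when counts were not divided by length. With exon lengths from the GENCODE basic set, an alternative chosen after seeing the data, the summed levels were 574 RPKM for fibroblast, 103 RPKM for blood endothelial and 37.3 RPKM for T cell genes, in place of 329, 79.0 and 24.5 RPKM. On the TPM scale, in which satellite-like and mitochondrial reads take part of the total, the highest over lowest tumor was 1.97 for keratins, 3.17 for fibroblast, 2.85 for blood endothelial, 7.52 for erythroid and 3.08 for core macrophage genes. When each tumor was left out in turn, it ran from 1.39 (without tumor 2) to 7.12 for muscle genes, in place of 6.84, and from 4.98 (without tumor 3) to 8.76 for MHC class II genes, in place of 8.76. Of 792 values of the other lists under these settings, 58 moved by more than 1 SD or 1.5 times, and the cause was not tested. Background subtraction gave 12 of these and leaving out tumor 1 gave 8. Levels near the receptor background, above all in tumor 1, are limited by depth and background, and sums of list genes follow their largest members.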
